A study of Mus musculus with 144 samples.

Results

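The comparison covers 58 single cells of the mouse subventricular zone whose stage label is aNSC, the usual short name for active neural stem cells. They were selected on 1 measured value, the level of Nr2e1 (ENSMUSG00000019803), which encodes the orphan nuclear receptor Tlx. Cells with Nr2e1 at 1 TPM or more, a transcript abundance scaled to a fixed sum per library, are called Nr2e1-positive here and number 33. Cells under 1 TPM are called Nr2e1-negative and number 25. The 58 cells belong to a series of 144 libraries, of which 131 are single cells. All cells were sorted by flow cytometry for Tlx expression from mice aged 5 weeks, 7 weeks or 7 months, and no treatment is named. The table holds a row named gfp, but the labels do not say which construct carries it, and they name no strain, allele, sex or animal. They also do not state how the stage was assigned. Library titles begin with a set name, such as A3_2, and aNSC came from 9 such sets, 3 per age.

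Tlx is a DNA-binding repressor that works with histone deacetylases and the histone demethylase Kdm1a, and it is known for keeping adult neural stem cells able to self-renew. In the subventricular zone, quiescent stem cells with astrocyte-like genes become active, divide, pass through a progenitor state marked by Egfr, and give rise to neuroblasts. Neuroblasts carry genes such as Dcx, Tubb3, Nrxn3 and Sp8, and migrate to the olfactory bulb. The question was which other transcripts differed between active cells with and without Nr2e1 transcripts.

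Nr2e1 chose the 2 sides, so its own levels are a description. Of the 25 negative cells, 11 were listed at exactly 0 and 14 lay above 0 but under 1 TPM. The 33 positive cells ran from 1.31 to 896.1 TPM with a median of 97.0 TPM, and 26 of them stood at 10 TPM or more. Few cells lay near the limit of 1 TPM. The nearest below had 0.69, 0.69, 0.34 and 0.25 TPM, and the nearest above had 1.31, 1.68, 1.78 and 1.83 TPM.

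The share of positive cells differed with age and set. At 5 weeks 16 of 32 cells were positive (50.0%, 31.9 to 68.1) and at 7 weeks 8 of 16 (50.0%, 24.65 to 75.35), while 9 of 10 were positive at 7 months (90.0%, 55.5 to 99.75). Brackets hold exact binomial 95% intervals, which cover counting error only. The positive cells of 7 months were mostly low, with a median of 4.95 TPM against 114.1 TPM at 5 weeks and 313.4 TPM at 7 weeks, and 6 of the 7 positive cells under 10 TPM came from 7 months. Sets of the same age also differed. At 5 weeks, 7 of 8 cells of set A3_1 were positive, 7 of 13 of A3_2 and 2 of 11 of A3_3. At 7 weeks the counts were 5 of 7 in A2_1, 3 of 5 in A2_2 and 0 of 4 in A2_3.

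**Figure D1:**
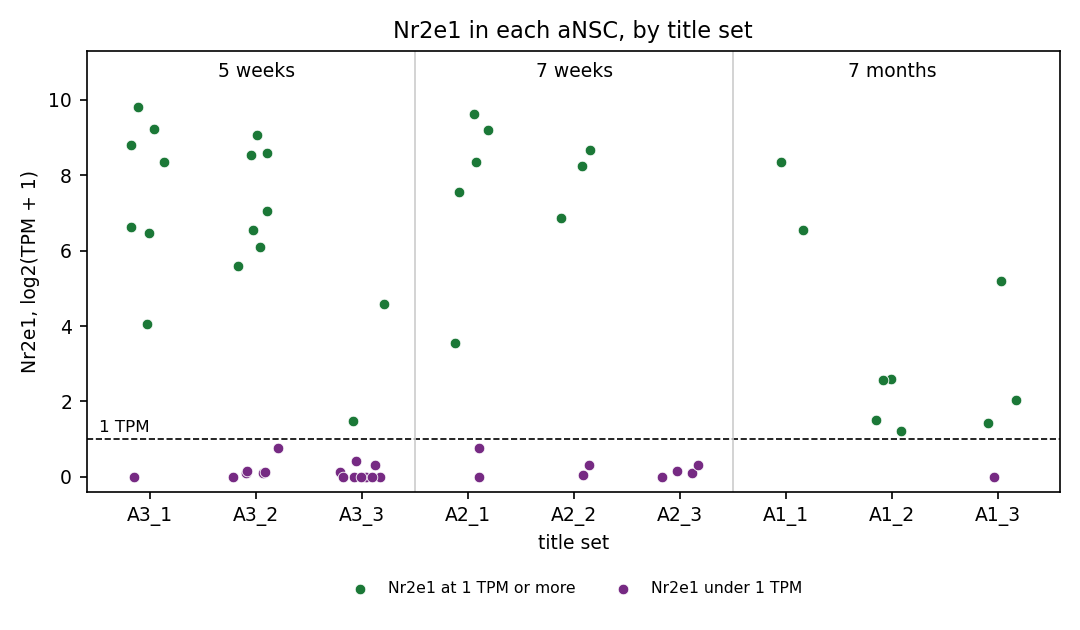
Nr2e1 of each aNSC as log2(TPM + 1), by title set, with the 3 ages side by side and a dashed line at 1 TPM. Each point is 1 cell, and sets A3_3 (2 of 11) and A2_3 (0 of 4) hold few or no positive cells, while the cells of A1_2 all lie just above the line.

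The row named gfp, a fluorescent reporter, was at 1 TPM or more in 23 of 33 positive cells (69.7%, 51.3 to 84.4) and in 7 of 25 negative cells (28%, 12.1 to 49.4). Both transcripts were seen together in 23 cells, Nr2e1 alone in 10, gfp alone in 7 and neither in 18. The median of gfp was 22.1 TPM in positive cells and 0 in negative cells, although the groups overlapped up to 836 TPM. All 58 cells had been sorted for Tlx expression, and the part of the sort in these shares was not tested.

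A pair of cells carried the genes of oligodendrocytes, the myelin-forming cells of the brain. Both belonged to set A1_3 of 7 months. Their mean over 15 oligodendrocyte genes, as log2(TPM + 1), was 9.86 and 9.67, against 1.79 in the next highest aNSC. The myelin gene Mbp stood at 3973 TPM in the negative cell and 6813 TPM in the positive cell, with a median of 0 TPM in the other aNSC. Their mean over the activation and progenitor genes was 0.19 and 0.53, so the transcripts of these cells go against the active stem cell label. The negative one is the only Nr2e1-negative cell of 7 months. Every 7-month difference below therefore sets 9 cells against this 1 cell. The values at 5 and 7 weeks, which hold neither cell, are given beside it. Where both cells are left out and ages are the pairs, 7 months has no negative cell and drops out. Such values rest on 5 and 7 weeks only.

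Genes of other cell types were near 0 in most of the remaining 56 cells, with single cells at higher summed levels. None of the 9 oligodendrocyte precursor genes reached 1 TPM in any of them. Microglial genes reached it for 2 of 14 on the positive side and 0 on the negative side, with summed levels of 0 to 780 TPM and 0 to 0.31 TPM. Endothelial and mural genes reached it for 1 of 15 and 0. Mature neuron genes did so for 5 of 15 on each side, with summed medians of 0.84 TPM in positive cells (range 0 to 649) and 0.97 TPM in negative cells (range 0 to 3213). The oligodendrocyte list had summed levels of up to 607.4 TPM in positive and 838.2 TPM in negative cells, ependymal genes of up to 873.6 and 248 TPM, and erythroid genes of up to 500.9 and 875.9 TPM. Choroid plexus genes reached 440.6 TPM in positive cells and 1.21 TPM in negative cells, with 2 and 1 of 8 genes seen. The median summed level of each of these 4 lists was under 1 TPM on both sides. Their part in the results below was not tested.

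Read counts cannot be had from TPM, which leaves sequencing depth unknown. Libraries are therefore described by the genes that reached 1 TPM in each. Positive cells had 1635 to 3842 genes with a median of 2953, and negative cells had 1621 to 3385 with a median of 2547. The ranges overlapped at 5 and 7 weeks, while at 7 months the 1 negative cell, at 1621 genes, lay below all 9 positive cells (2235 to 3450). The mean was 385.8 genes higher in positive cells at 5 weeks and 12.5 higher at 7 weeks, and the 7-month difference of 1300 rests on the oligodendrocyte-gene cell. With 3 ages as pairs, an exact permutation test could not go below a two-sided p of 0.25, so none was run. Genes detected moved with the Nr2e1 sides at 5 weeks, and its part in the gene differences below was not tested at the level of ages.

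**Figure D2:**
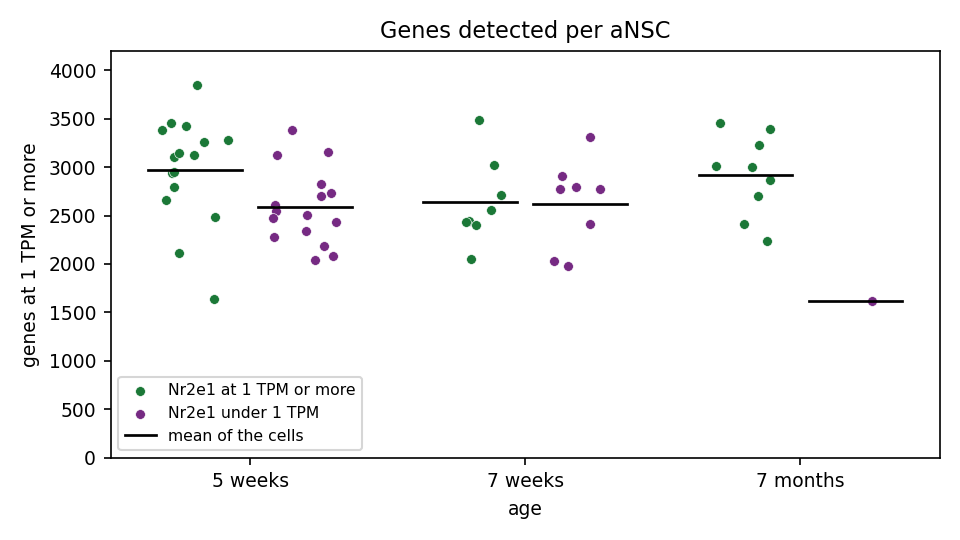
Number of genes at 1 TPM or more in each aNSC (points), by age and Nr2e1 side, with the mean of the cells as a bar. The 2 sides overlap at 5 and 7 weeks, and the single negative cell of 7 months has 1621 genes.

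No gene passed the test across all genes. For each age and side, the mean of log2(TPM + 1) over its cells was taken, which gave 3 pairs of means. Of 4453 genes with a mean of at least 1, limma called 0 higher and 0 lower in positive cells at an adjusted p of 0.05, which is 0.0% of genes in either direction. At an unadjusted p under 0.05 there were 176 genes higher and 5 lower, and the smallest adjusted p was 0.686. These 181 genes are a smaller share of the 4453 than the limit of 0.05 itself. After quantile normalization the counts were 72 higher and 12 lower of 4728 genes. The other fits across all genes also called 0, except 2 that left out 1 age. Without 5 weeks Malat1 was called lower, and without 7 weeks Malat1 was called lower and Hmgn2 higher, both with the oligodendrocyte-gene cell as a pair member. All differences below are log2 differences of mean log2(TPM + 1), positive minus negative, and none passed the test.

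The median difference over the tested genes was 0.53, made of 0.36 at 5 weeks, 0.00 at 7 weeks and 1.45 at 7 months. A list can be read only against these values. The filter used all 6 means, and 1 of these is the negative oligodendrocyte-gene cell of 7 months. Genes high in that cell alone could therefore pass. Of 15 oligodendrocyte genes 12 passed, with medians of 0 at 5 and 7 weeks and -9.08 at 7 months. Such genes are part of the shares given here. The same sign in all 3 ages was found for 26.7% of genes in the higher direction and 5.55% in the lower. The same sign at both 5 and 7 weeks was found for 35.0% higher and 20.3% lower. In 5 title sets that hold both sides without the oligodendrocyte-gene cells, 4.09% of genes were higher and 1.55% lower in every set.

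Neuroblast genes had lower means in Nr2e1-positive cells at the 2 younger ages, and none passed the test. Of 30 neuroblast genes, 25 passed the filter. At both 5 and 7 weeks 20 of these were lower and 0 higher in positive cells, beside 20.3% and 35.0% of all tested genes. The median difference was -1.92 at 5 weeks and -2.83 at 7 weeks, while at 7 months, against the oligodendrocyte-gene cell, it was 2.95. Over the 3 ages the median was -0.73, with 0 of 25 genes called in either direction. Without the oligodendrocyte-gene cells, and so without 7 months, it was -2.37. The 3-age median lay above 0 with a filter at a mean of 3 (0.12), with the log2 of the mean TPM (0.65), with Nr2e1 above 0 as the limit (0.58), without 5 weeks (0.21) and without 7 weeks (0.39). With title sets as pairs it was -0.31, and -0.86 with title sets and without the oligodendrocyte-gene cells. The 5-week and 7-week medians stayed below 0 in the 16 alternatives with ages as pairs that changed either of them. They were closest to 0, at -0.46 and -0.62, with Nr2e1 above 0 as the limit. Within single 5-week sets the median was -2.46 in A3_2 but 1.2 in A3_1 and 0.48 in A3_3. Within 7-week sets it was -2.19 in A2_1 and -0.65 in A2_2. The list, like all others here, was chosen with earlier results of these data known.

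The same pattern was visible cell by cell. The mean over the neuroblast list ran from 0.97 to 6.50 with a median of 2.94 in positive cells and from 1.26 to 6.72 with a median of 5.29 in negative cells. A mean of 3 or more, a level picked after the values were seen, occurred in 14 of 33 positive cells (42.4%, 25.5 to 60.8) and in 23 of 25 negative cells (92.0%, 74.0 to 99.0). Without the oligodendrocyte-gene cells the counts were 14 of 32 and 23 of 24. The groups overlapped, and 6 positive cells had a neuroblast mean of 5 or more.

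Tubb3 (ENSMUSG00000062380), a neuronal tubulin, was at 1 TPM or more in 23 of 33 positive cells (69.7%, 51.3 to 84.4) and 23 of 25 negative cells (92.0%, 74.0 to 99.0). Its TPM ran from 0 to 6332 with a median of 422 in positive cells and from 0.43 to 6765 with a median of 1754 in negative cells. The difference was -3.81 at 5 weeks, -5.93 at 7 weeks and 7.45 at 7 months. Both groups spanned nearly the whole range, but at 5 weeks the median was 8 TPM in positive and 1990 TPM in negative cells. Without the oligodendrocyte-gene cells, and so with the pairs of 5 and 7 weeks only, the difference was -4.87 (limma adjusted p = 0.189).

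Ncam1 (ENSMUSG00000039542), a neural adhesion molecule, was seen in 28 of 33 positive and all 25 negative cells, with medians of 119 TPM and 869 TPM. The difference was -2.72 at 5 weeks and -4.55 at 7 weeks. The synaptic adhesion gene Nrxn3 (ENSMUSG00000066392) was seen in 9 of 33 positive cells (27.3%, 13.3 to 45.5) and in 20 of 25 negative cells (80.0%, 59.3 to 93.2). Its median was 0 TPM in positive cells and 26.5 TPM in negative cells.

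Transcription factors of olfactory bulb interneurons had the same direction at 5 and 7 weeks. Sp8 was seen in 9 of 33 positive and 16 of 25 negative cells, with differences of -3.18 and -4.09. Sp9 was seen in 9 and 18 cells, with differences of -1.72 and -3.54. Meis2 was seen in 10 and 18 cells, with medians of 0.20 TPM and 112 TPM, and its mean was lower in positive cells in 5 of 5 title sets. Etv1 was seen in 2 of 33 positive and 10 of 25 negative cells.

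The surface protein Cd24a, used to sort neuroblasts, was seen in 15 of 33 positive and 18 of 25 negative cells, at medians of 0.68 TPM and 170.5 TPM. Its difference was -4.11 at 5 weeks and -3.08 at 7 weeks, but its mean was higher in positive cells in 2 of 5 sets. Dcx, a microtubule-binding protein of migrating neuroblasts, was seen in 12 of 33 positive and 14 of 25 negative cells, and its mean was higher in positive cells in 3 of 5 sets. Gad1, which makes the inhibitory transmitter GABA, was seen in 5 and 11 cells. Stmn1 and Hmgn2 were seen in all 58 cells, at medians of 6983 and 17810 TPM in positive cells and 9539 and 15370 TPM in negative cells.

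**Figure D3:**
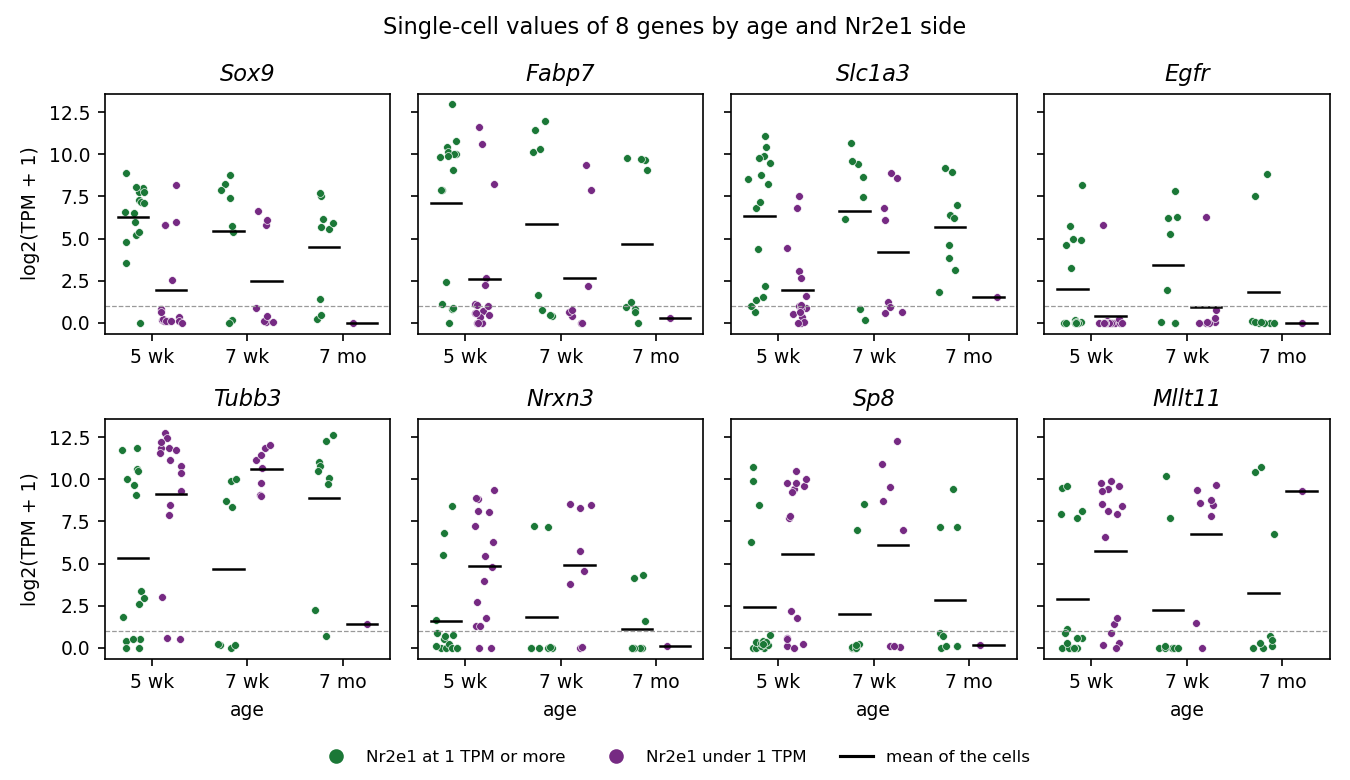
log2(TPM + 1) of 8 genes in each aNSC (points), by age and Nr2e1 side, with bars at the mean of the cells and a dashed line at 1 TPM. Sox9, Fabp7 and Slc1a3 sit high in most positive cells of 5 weeks, Tubb3, Nrxn3, Sp8 and Mllt11 sit high in most negative cells of 5 and 7 weeks, and 7 months has 1 negative cell.

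Genes of progenitors and of astrocyte-like stem cells had higher means on the positive side for some members and not for others, and none passed the test. Sox9 (ENSMUSG00000000567), a transcription factor of stem cells and glia, was seen in 28 of 33 positive cells (84.8%, 68.1 to 94.9) and in 8 of 25 negative cells (32%, 14.9 to 53.5). Its TPM ran from 0 to 471 with a median of 70.0 in positive cells, and from 0 to 288 with a median of 0.28 in negative cells. The difference was 3.92 (SE 1.31, n = 3 age pairs, limma adjusted p = 0.686), with 4.32 at 5 weeks, 2.94 at 7 weeks and 4.52 at 7 months.

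Fabp7 (ENSMUSG00000019874), a fatty acid binding protein of radial glia, was seen in 23 of 33 positive cells and 11 of 25 negative cells, at medians of 527 TPM and 0.66 TPM. Its difference was 4.55 at 5 weeks, 3.23 at 7 weeks and 4.36 at 7 months. At 7 months its median in positive cells was 1.35 TPM, against 721 TPM at 5 weeks. Egfr (ENSMUSG00000020122), the growth factor receptor that marks activated stem cells, was seen in 13 of 33 positive and 2 of 25 negative cells, with a difference of 2 (SE 0.73). It was undetected in most cells of both sides.

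The progenitor list as a whole was mixed. Of 20 genes, 19 matched a row and 13 passed the filter. At both 5 and 7 weeks 5 of the 13 were higher and 1 lower, beside 35.0% and 20.3% of all tested genes. The median was 1.16 at 5 weeks, 0.75 at 7 weeks (-0.63 with Nr2e1 above 0 as the limit) and 1.92 at 7 months. Cdk4 and Ccnd2, which drive entry into the cell cycle, were seen nearly everywhere, in 32 and 33 of 33 positive cells and in 24 and 23 of 25 negative cells, so both sides carried genes of cycling progenitors. Sox2 was seen in 6 positive and 8 negative cells, and Dlx2 in 8 and 8. Dlx1, which acts in the interneuron lineage, was seen in 16 positive and 19 negative cells. Cell by cell, a list mean of 3 or more occurred in 19 of 33 positive and 5 of 25 negative cells.

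Astroglial and quiescence genes gave 25 tested of 37. At both 5 and 7 weeks 19 of the 25 were higher and 0 lower, beside 35.0% and 20.3% of all tested genes. The list median was 1.19 at 5 weeks, 1.28 at 7 weeks (-0.22 without set A2_1) and 2.49 at 7 months. Within single 5-week sets it was 0.43 in A3_1, 0.55 in A3_2 and 0.32 in A3_3, beside 0.90, 0.42 and -0.15 over all tested genes. Within 7-week sets it was 1.61 in A2_1 and -0.25 in A2_2. Of the 25 genes, 0 were higher in all 5 of these sets, beside 4.09% of all tested genes. Slc1a3 (ENSMUSG00000005360), a glutamate transporter, was seen in 30 of 33 positive cells and 13 of 25 negative cells, at medians of 125 TPM and 1.11 TPM. Its range was 0.13 to 2210 TPM in positive and 0 to 471 TPM in negative cells. Ptprz1, a receptor phosphatase, was seen in 25 and 9 cells, Slc1a2 in 23 and 7, and Plpp3 in 22 and 5. Mt1, a metallothionein, was seen in 27 and 10 cells, with differences of 4.03 at 5 weeks, 6.15 at 7 weeks and -2.03 at 7 months. The astroglial genes Gfap and S100b reached 1 TPM in 0 of 58 cells, which allows a share of up to 9.09% of positive and 12% of negative cells.

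**Figure D4:**
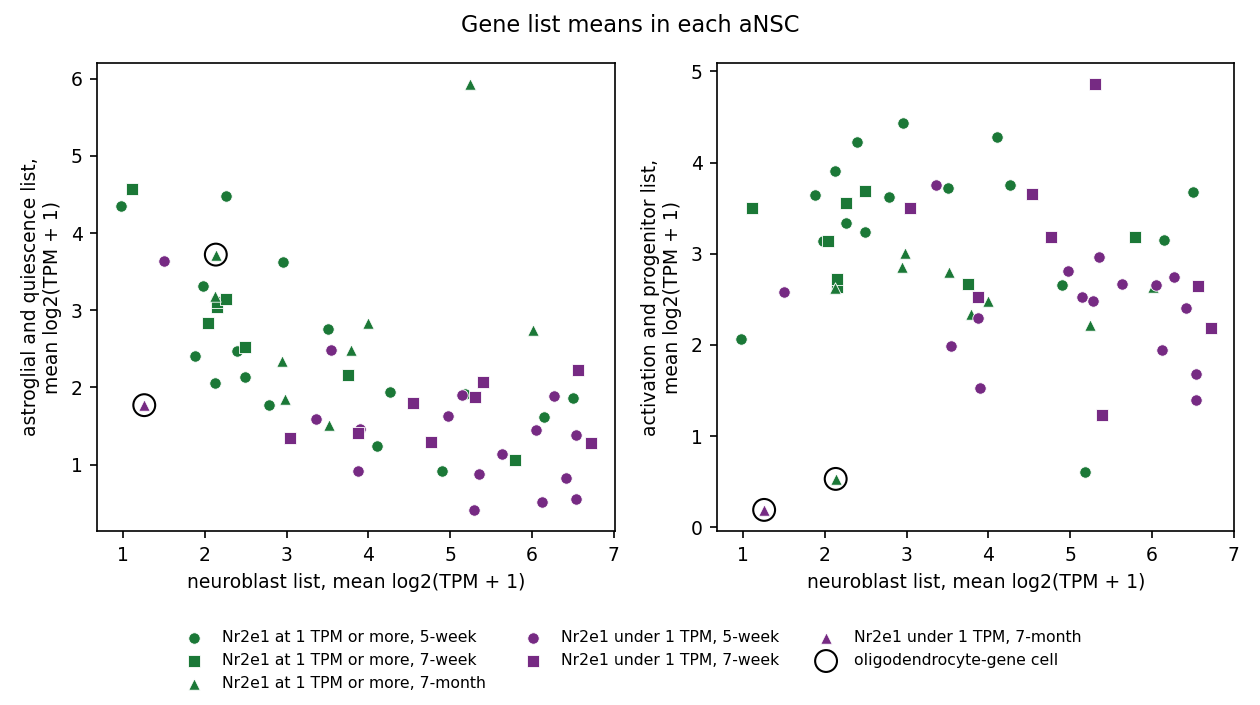
Mean log2(TPM + 1) over the neuroblast list against the mean over the astroglial and quiescence list (left) and the activation and progenitor list (right) in each aNSC. Positive cells fill the upper left of the left panel, negative cells the lower right, some cells of each side lie among the other, and circles mark the 2 oligodendrocyte-gene cells.

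Within the positive cells the Nr2e1 level itself varied with some of these lists. Over 33 cells, log2(TPM + 1) of Nr2e1 and the neuroblast mean had a Pearson r of -0.383 and a Spearman rho of -0.521, and with the progenitor mean an r of 0.567 and a rho of 0.480. With the astroglial and quiescence mean r was 0.0451 and rho 0.127. With the number of genes detected r was -0.012. The cells share sets, ages and TPM scaling, and the low Nr2e1 values were mostly from 7 months, so these coefficients are descriptions.

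Title sets varied in how far the sides parted. In A3_2, with 7 positive and 6 negative cells, the neuroblast mean ran from 2.40 to 4.90 in positive cells and from 3.89 to 6.54 in negative cells. Sox9 and Slc1a3 were each seen in 7 of 7 positive and 1 of 6 negative cells there, Fabp7 in 6 of 7 and 1 of 6, and Nrxn3 in 1 of 7 and 6 of 6. In A2_1 the 5 positive cells had neuroblast means of 1.11 to 2.49 and the 2 negative cells had 3.88 and 5.31, without overlap.

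Sets A2_2, A3_3 and A3_1 did not part in this way. In A2_2 the sides overlapped, with neuroblast means of 2.03, 3.75 and 5.79 in positive cells and 3.04 and 6.57 in negative cells. In A3_3 the 2 positive cells had neuroblast means of 5.18 and 6.50, inside or near the range of the 9 negative cells (3.36 to 6.54). The single negative cell of A3_1 had a neuroblast mean of 1.50 and an astroglial mean of 3.64, like most positive cells of that set. The list median was -2.19 in A2_1, -0.65 in A2_2, 1.2 in A3_1, -2.46 in A3_2 and 0.48 in A3_3. All 4 cells of A2_3 were negative, with neuroblast means of 4.54 to 6.72. The set and the Nr2e1 side were thus partly the same split. With title sets as pairs and without the oligodendrocyte-gene cells limma called 0 of 4706 genes (183 at an unadjusted p under 0.05).

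Cell cycle lists had like medians at 5 weeks and medians of opposite sign at 7 weeks, and the difference between the lists was not tested. S-phase genes, which copy DNA, gave 35 tested of 40. At both 5 and 7 weeks 25 of the 35 were higher and 0 lower, beside 35.0% and 20.3% of all tested genes. The list medians were 1.50, 1.70 and 3.44 at 5 weeks, 7 weeks and 7 months. With Nr2e1 above 0 as the limit the 7-week median was -0.53. Pcna, the clamp of the replication machinery, was seen in 29 of 33 positive cells and 16 of 25 negative cells, at medians of 1035 TPM and 545 TPM. In 5 of 5 sets 2 of the 35 genes were higher, beside 4.09% of all tested genes. A list mean of 3 or more occurred in 22 of 33 positive and 9 of 25 negative cells.

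G2/M genes, which act at division, did not part the sides in 1 direction. Their median was 1.56 at 5 weeks and -1.63 at 7 weeks. At both ages 3 of 36 tested genes were higher and 0 lower, beside 35.0% and 20.3% of all tested genes. Mki67, a proliferation marker, was seen in 12 of 33 positive and 9 of 25 negative cells, and Top2a, which untangles DNA, in 21 and 14. A list mean of 3 or more occurred in 11 of 33 positive and 13 of 25 negative cells, while a mean of 5 or more occurred in 8 and 4.

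**Figure D5:**
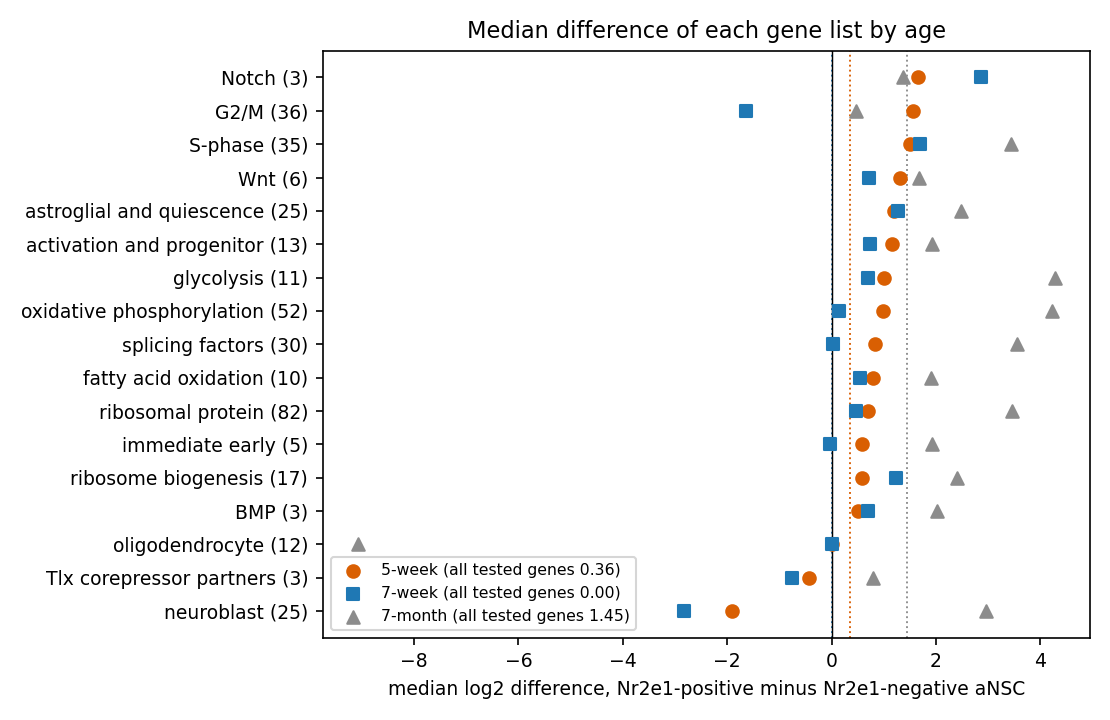
Median log2 difference (positive minus negative) over the tested members of each gene list with at least 3, by age, with the number tested in brackets and dotted lines at the median of all tested genes. The neuroblast list lies lowest at 5 and 7 weeks (-1.92 and -2.83), and the 7-month points compare 9 cells with 1 oligodendrocyte-gene cell.

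Signalling genes were sparse. Of 16 Notch pathway genes 3 passed the filter. The receptor Notch2 was seen in 19 of 33 positive and 6 of 25 negative cells, with differences of 1.75, 2.86 and 1.07 at the 3 ages. The ligand Jag1 was seen in 18 and 4 cells, and its difference of 6.03 at 7 weeks stood against 1.65 at 5 weeks, where it was lower in positive cells in all 3 sets taken alone. The Notch target Hes5 was seen in 6 and 1 cells, the ligand Dll1 in 7 and 1, and Numb, a Notch inhibitor, in 6 and 1. Of 17 BMP pathway genes 3 passed, with Id2, a BMP-induced inhibitor of differentiation factors, seen in 24 positive and 11 negative cells. Of 22 Wnt pathway genes 6 passed. Tcf7l2, which carries the Wnt signal to DNA, was seen in 14 and 2 cells.

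Genes known as Tlx targets or partners were mostly under the filter. Of 9 target genes 2 passed, with medians of 0.40 at 5 weeks, 0.81 at 7 weeks and, against the oligodendrocyte-gene cell, -4.63 at 7 months. Cdkn1a, a cell cycle inhibitor that Tlx represses, was seen in 5 of 33 positive and 2 of 25 negative cells, and Wnt7a, a ligand that Tlx activates, in 3 and 0. Sirt1, a deacetylase, was seen in 8 and 9 cells. Of 5 corepressor partners 3 passed, with Hdac3 in 11 positive and 9 negative cells, Kdm1a in 6 and 7, and Bcl11a in 9 and 12. Their differences had no shared sign over the ages. Of 28 nuclear receptors other than Nr2e1, 2 passed the filter, Nr2c2 (seen in 8 and 9 cells) and Nr4a1 (seen in 2 and 1). Their median was -0.88 at 5 weeks, 0.20 at 7 weeks and, against the oligodendrocyte-gene cell, -2.45 at 7 months.

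Tlx binds the letters AAGTCA as a half-site. These letters were searched on both strands (AAGTCA or TGACTT) in RefSeq promoter windows of GRCm38.p6, which is not the build of the expression table. They were found in 15.1% of 32851 windows, and 17% of 27025 genes had at least 1 window with them, so a match is common. At least 1 window held them for 2 of 17 neuroblast genes with a window, for 2 of 16 progenitor genes, and for 2 of 10 and 2 of 9 of the genes named higher and lower in the next paragraph. The windows of Nr2e1 itself, of Fabp7 and of the astrocyte gene Gfap, chosen after the values were seen, are shown with the match in capitals, 5′ to 3′ on the strand of the gene.
Nr2e1, chr10:42583566-42583595, minus strand: gcgacaggcacaAAGTCAcagggtaatgaa
Fabp7, chr10:57784676-57784705, plus strand: cccaggccccgcTGACTTcctttagagcat
Gfap, chr11:102897178-102897207, minus strand: ggtgcttccaggAAGTCAggggcagattta
Fabp7 had a higher mean in the positive cells, while Gfap was under 1 TPM in every aNSC. A match describes the letters in these windows and not a binding site.

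Since no gene passed the test, 10 genes per direction were named by the smallest unadjusted p. They had to share a sign in 3 of 3 ages and in all but at most 1 of the title sets. The rule counted the 6 sets with both sides, A1_3 and its oligodendrocyte-gene cell included. Agreement between sets was thus asked for, and the counts of sets given for these genes are no separate evidence. On the higher side the named genes were Slc25a5, Tnfrsf19, Dcun1d1, Blvra, Ppa1, Ppib, Rexo2, Cldn10, Brk1 and Ndufs8. Slc25a5, which exchanges ATP and ADP across the mitochondrial membrane, had medians of 2077 TPM in positive and 48.8 TPM in negative cells, and a difference of 6.27 (SE 1.63), or 4.29 without the oligodendrocyte-gene cells (limma adjusted p = 0.147). Ppa1, an inorganic pyrophosphatase, was seen in 27 of 33 positive and 8 of 25 negative cells and was higher in 5 of 5 sets. Dcun1d1, which acts in protein neddylation, was seen in 15 and 2 cells and was also higher in 5 of 5. Tnfrsf19, a receptor of the tumour necrosis factor family, was seen in 12 and 1 cells, and Blvra, biliverdin reductase, in 10 and 0.

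On the lower side they were Mllt11, Malat1, Parl, Cnot4, Tnpo3, Xab2, Slc38a2, Ciao2b, Vps35 and Eml1. Mllt11 (ENSMUSG00000053192), a small protein of developing neurons, was seen in 11 of 33 positive cells (33.3%, 17.96 to 51.8) and 20 of 25 negative cells (80.0%, 59.3 to 93.2). Its medians were 0.23 TPM and 337 TPM, and it was lower in positive cells in 5 of 5 sets, with a difference of -4.47 (SE 1.56, n = 3 age pairs, limma adjusted p = 0.686). Parl, a mitochondrial protease, was seen in 1 positive and 8 negative cells. Malat1, a nuclear noncoding RNA, was present in all 58 cells, at medians of 10650 TPM in positive and 18420 TPM in negative cells. For 7 of these 10 genes the 7-month value, against the oligodendrocyte-gene cell, was larger than the 5-week and 7-week values together. It was -9.37 for Eml1, -7.46 for Xab2, -7.11 for Tnpo3, -6.66 for Cnot4, -4.51 for Vps35, -4.06 for Ciao2b and -2.13 for Malat1. On the higher side this held for 2 of 10, Slc25a5 and Rexo2.

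Housekeeping lists had positive medians at all 3 ages, some of them near the 0.00 of all genes at 7 weeks, with 0 genes past the test. Ribosomal protein genes (82 tested) had medians of 0.71 at 5 weeks and 0.48 at 7 weeks, and 3.45 at 7 months. Oxidative phosphorylation genes (52 tested) had 0.99 and 0.14, splicing factors (30 tested) 0.83 and 0.03, and glycolysis genes (11 tested) 1.00 and 0.70, with 4.23, 3.55 and 4.28 at 7 months. Within the 7-week sets A2_1 and A2_2 the medians lay below 0, at -0.47 and -0.10 for oxidative phosphorylation and -1.07 and -0.046 for splicing factors. Of these lists, 44, 20, 12 and 5 genes were higher at both younger ages, and 7, 8, 2 and 0 lower. Over all tested genes the shares were 35.0% higher and 20.3% lower.

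The same split was made in quiescent cells (qNSC), with 28 positive and 30 negative cells. Sox9 was seen in 24 of 28 positive and 27 of 30 negative qNSC, Slc1a3 in 28 and 29, and Fabp7 in 22 and 20. The difference between the stages was tested as an interaction, and limma called 0 of 4064 genes, with 169 at an unadjusted p under 0.05 and a smallest adjusted p of 0.904. For Sox9 the interaction was 3.91 (SE 1.66) and for Mllt11 -4.40 (SE 1.76), so a difference between the stages was not shown for either gene. It also uses the oligodendrocyte-gene cell at 7 months.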

How the data were processed

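The authors deposited 1 table of TPM values (transcript abundances on a fixed sum) with 37621 rows and 144 columns, and the submitters' processing notes name RSEM 1.2.15 and the build mm9. The annotation and the aligner are not given in the sources used here. TPM columns of aNSC summed to 876477 to 999999. Symbols were matched for 32898 rows, and 4 list members matched none.

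The members and all 26 gene lists were chosen with earlier results of these data known. The labels name no animal, so cells were not used as replicates, and p-values measure only the spread between ages, which may be technical. Values were log2(TPM + 1), averaged over the cells of each age and side, giving 6 means. The 2 sides of an age share mice of that age and title sets, so age was the replicate block, with 3 pairs. limma 3.58.1 in R 4.3.3 (lmFit, eBayes with trend, two-sided, Benjamini-Hochberg over all tested genes, threshold 0.05) tested genes with a mean of at least 1, without Nr2e1. Genes were named from a panel, from up to 3 tested members of each list with the highest mean, and from up to 10 per direction past the test with the same sign in 3 of 3 ages, filled by the smallest unadjusted p where fewer passed. Predicted and Rik models were left out, and other genes named were chosen after their values were seen. Detection was 1 TPM, with exact (Clopper-Pearson) 95% intervals, and a share of 0 was limited by 3 cells. Near-identical qNSC libraries, with a correlation above 0.95, were averaged. The fit was tested on simulated data. Alternatives were another pseudocount, filter, scaling, cell weight or Nr2e1 limit, title sets as pairs, a covariate for genes detected, and leaving out cells, ages or sets. Title sets as pairs without the oligodendrocyte-gene cells were chosen after seeing the data. Python 3.11.15, pandas 2.3.3, numpy 2.4.6, scipy 1.17.1 and matplotlib 3.10.9 did the rest.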

Additional observations from a re-analysis of the deposited data

Results flagged for a closer look

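Of 21 combinations of a measure and a group of 4 to 10 cells, 4 held a cell far from the others. Chance gives about 1 in 20 for separate groups. These combinations share cells, so that rate is not a fair measure for the count. Among the 9 positive cells of 7 months, a cell of set A1_3 had an astroglial and quiescence mean of 5.93, with the next at 3.72. The positive oligodendrocyte-gene cell of that set stood apart by 2 lists, with an oligodendrocyte mean of 9.67 (next 1.79) and an activation and progenitor mean of 0.53 (next 2.22). Among the 8 positive cells of 7 weeks, a cell of set A2_1 had an oligodendrocyte mean of 0.52, with the next at 0.19. The median of these 8 cells was 0.012, so this list lay near 0 there.

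Of 59 lists and genes, 6 had opposite signs at 5 and 7 weeks within title sets. Every set of 1 age that holds both sides lay above 0, and every such set of the other age below it. The difference between the ages was not tested, and the 7-week sets with both sides number 2. How many of the 59 would do so with random signs was not worked out, so the count of 6 is a description. The mean over the sets was 2.04 at 5 weeks and -4.16 at 7 weeks for the G2/M list, 0.85 and -0.94 for BMP, 1.06 and -0.56 for splicing factors, and 1.66 and -0.29 for oxidative phosphorylation. For single genes it was 1.87 and -3.51 for Dlx2, a progenitor transcription factor, and 2.25 and -2.49 for Top2a.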

How the results depend on the processing

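The count of genes past the test was 0 in both directions under every alternative except those leaving out 1 age, where it ran from 0 to 1 higher and 0 to 1 lower (Malat1 lower without 5 weeks, Malat1 lower and Hmgn2 higher without 7 weeks). Without the replicate block of age, 0 genes were called in either direction, with 204 at an unadjusted p under 0.05, and the pairing changed no call. The interaction with stage stayed at 0. The neuroblast median over ages lay above 0 with a filter at 3 (0.12), the log2 of mean TPM (0.65) and Nr2e1 above 0 as the limit (0.58). It was -0.31 with title sets as pairs and -0.86 with these and without the oligodendrocyte-gene cells, and leaving out 1 age or set gave -2.37 to 0.39.

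The activation and progenitor median, 1.42 as reported, depended most on the choices. It was 2.19 with a pseudocount of 0.1, 0.43 with no filter, 3.44 with a filter at 3, 3.12 for Nr2e1 over 50 TPM against under 1, 0.55 without the 10% of cells with the fewest genes, and 0.59 without the oligodendrocyte-gene cells. With title sets as pairs it was 0.44, and -0.25 with genes detected as a covariate. Without the oligodendrocyte-gene cells these were -0.0020 and -0.03092, and 0.074 after quantile normalization. Leaving out 1 age or set gave 0.59 to 2.47 with ages as pairs. With title sets as pairs and without the oligodendrocyte-gene cells, leaving out 1 set gave -0.89 to 0.44.

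The astroglial median, 1.62, was 2.95 for the log2 of mean TPM and 0.82 after quantile normalization. Leaving out 1 age or set with ages as pairs gave 1.29 to 2.05. With title sets as pairs and without the oligodendrocyte-gene cells it was 0.78, 0.77 with the covariate and 0.72 after quantile normalization. Leaving out 1 set there gave 0.49 to 1.08. The S-phase median, 2.22, was 0.99 with an Nr2e1 limit of 10 TPM, 1.03 with title sets as pairs and 0.96 with the covariate. Without the oligodendrocyte-gene cells these were 1.05 and 1.01, and 0.92 after quantile normalization, and leaving out 1 set there gave 0.78 to 1.03. With ages as pairs, leaving out 1 age or set gave 1.80 to 2.59. The cause of these shifts was not tested.

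For 92 genes under 3032 gene and setting combinations, 338 had another sign and 3 passed the test. The covariate could not be fitted with ages as pairs. Depth is unknown for TPM, so an undetected gene may be below what a cell's reads could show.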
